A study of Rattus norvegicus with 18 samples.

Results

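In the rat kidney, 166 assembled loci held listed transcripts that differed between hypertensive and control rats in opposite directions. An assembled locus is a group of transcripts that were put together from the reads and named MERGE, then a locus number, then an isoform number. A locus was taken where at least 1 of its listed isoforms had a higher and at least 1 a lower mean log2(value + 1) over the 6 libraries of SHR than over the 6 libraries of WKY. This held for 166 (42.1%) of the 394 loci with 2 or more listed isoforms, of 2474 assembled loci in all. The 166 loci carried 542 of the 3177 listed assembled isoforms, of which 258 were higher and 284 lower in SHR. The loci were chosen by these strain means, so every value that sets SHR beside WKY below is a description and carries no test.

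The series measured RNA from whole kidney in 18 libraries, 6 per group. SHR, the spontaneously hypertensive rat, is an inbred strain that develops high blood pressure, and WKY, its usual control strain, is normotensive. Both had double distilled water for 10 weeks. The third group, SHR+Iso, was SHR given isoliensinine, a plant alkaloid, at 5 mg/kg/d for 10 weeks, and its labels list double distilled water as well. The age and sex of the rats were not given in the sources used here, and nothing stated whether each library came from a separate animal. The p-values behind the calls below measure the spread between libraries, which may be technical in part.

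Most mammalian genes make several transcripts, through alternative start sites, splicing and polyadenylation. Isoforms of 1 gene can differ in the protein they encode, or only in untranslated parts that bear on stability and translation. A change in which isoform predominates can occur with little change in the total output of the gene, so that a value summed over the gene does not show it. Assembly of short reads has to divide reads from shared exons among overlapping isoforms, so the values of isoforms of 1 locus depend on each other. Between inbred strains, sequence differences can also move reads from 1 assembled isoform to another. The part of such read assignment in the differences below was not tested.

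The values are the authors' normalised transcript abundances, whose scale is not given in the sources used here. The depth behind them is unknown. The listed transcripts had been selected for differing between groups: in all 542 isoforms, the strain means of log2(value + 0.01) differed by at least 1. A share below is the value of an isoform as a percentage of the sum over the listed isoforms of its locus in the same library. Isoforms that were not listed, and transcripts carrying Ensembl names, entered neither the share nor the sum, so a summed level is not the whole output of a locus. No assembled ID paired with a gene name, so the genes, their positions and their sequences are not given here, and markers of kidney cell types could not be looked up for them. In a whole organ, a change in the proportion of a cell type and a change of RNA within a cell cannot be told apart.

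Most of the 166 loci were small. There were 94 with 2 listed isoforms, 34 with 3, 33 with 4 to 9 and 5 with 10 or more, and locus 15654 held the most with 28. The other 228 loci with several isoforms, in which all isoforms were higher (107 loci) or all lower (121 loci) in SHR, held at most 8 each. The isoform numbers ran above the number listed: the median locus had 6 as its highest isoform number, and 46.4% of that number were listed, against 5 and 50% in the other 228 loci. Most isoforms were scarce. The higher of the 2 strain means had a median of 1.95 and was under 1 in 135 isoforms, at least 5 in 113 and at least 10 in 59. Values were above 0 in all 12 libraries for 129 isoforms, and 119 were listed at 0 in all 6 libraries of 1 strain. Presence in all 6 libraries of 1 strain with 0 in all 6 of the other was found for 20 isoforms in SHR and 12 in WKY. Only loci 9252 and 15654 held an isoform of each of these kinds. The summed level per locus had a median of 4.31 in WKY and 3.24 in SHR, and reached 5 in each strain at 49 loci.

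The leading isoform, the one with the highest mean share, differed between the strains at 129 of the 166 loci (77.7%). Among the other 228 loci it differed at 73 (32.0%). The rule favours such exchanges, so the contrast between the 2 sets describes what the rule selects. The isoforms that were higher in SHR held a median of 9.64% of their locus in WKY and 85.8% in SHR. At 133 loci they held under 50% in WKY and over 50% in SHR. The largest strain difference in the share of any 1 isoform had a median of 56.9 percentage points, with quartiles of 42.0 and 70.8. It was at least 50 points at 102 loci and at least 90 points at 14, 9 of which had 2 listed isoforms. Some of these changes rest on low sums. The mean sum was under 1 in at least 1 strain at 24 of the 166 loci. A sum of 0 in at least 1 library was found at 17 loci in WKY and 11 in SHR. At locus 4379, with a change of 99.7 points, the sums in SHR 1 to 6 were 0.0074, 0.0098, 0, 0.593, 0.0025 and 4.92. Within a strain, the share of the SHR-higher isoforms varied by a median SD of 11.4 points in WKY and 12.7 points in SHR. It could be formed in all 12 libraries at 146 loci, and at 61 of these no SHR library fell within the WKY range.

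The separation of single isoforms was no greater than among assembled transcripts in general. The values of 151 of the 542 isoforms (27.9%) did not overlap between the 6 SHR and the 6 WKY libraries, 69 of them higher and 82 lower in SHR, against 28.6% of all 3177 assembled transcripts. At 33 of the 166 loci at least 1 isoform was separated in each direction, which is 8.38% of the 394 loci with several isoforms. The linear model fitted to all 1657 listed transcripts that passed the filter, a value of at least 1 in 6 of 12 libraries, covered 214 of the 542 isoforms. It called 189 of them, 83 higher and 106 lower, where 82.6% of all transcripts tested were called. With the same filter and any 1 WKY library left out, 125 to 134 were called and the split turned to 73 to 77 higher against 51 to 59 lower. Both the listing and the choice of loci used these values, so nothing is read from the count or its split.

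The summed level differed less between the strains than its isoforms did. The absolute strain difference in log2(sum + 1) had a median of 0.48 over the 166 loci, against 1.34 over the other 228, although the median absolute difference of single isoforms was 1.01 and 0.86. A difference of at least 1 was found in the sum at 34 opposed loci (20.5%) and at 181 of the others (79.4%). The sum was higher in SHR at 60 opposed loci and lower at 106, with a signed median of -0.18. Sums did not overlap between the strains at 21 opposed loci (12.7%), 5 higher and 16 lower in SHR, where 32.2% of all 394 loci with several isoforms did not overlap. Opposed isoforms offset each other in a sum by construction, so the smaller difference in the sum follows from the rule.

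**Figure D1:**
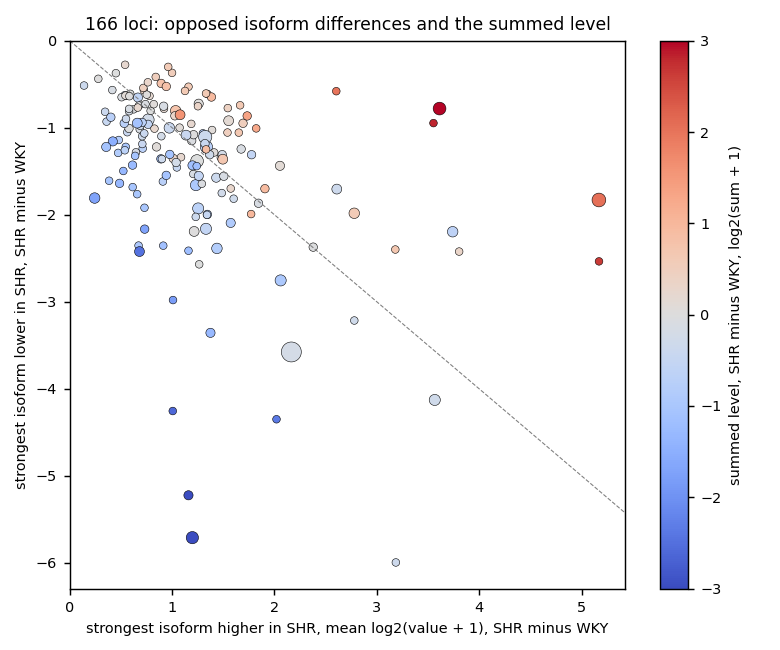
Each point is 1 of the 166 loci: the horizontal axis gives the largest positive and the vertical axis the largest negative SHR minus WKY difference among its isoforms, in mean log2(value + 1). Colour gives the difference in the summed level, with the scale cut off at 3 either way, and point size the number of listed isoforms. Points below the dashed line of equal sizes, where the lower isoform differed more, are mostly blue (lower sum in SHR), and the points with the strongest colours are loci 9252 and 11634 and others like them in which 1 direction was far larger.

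At 15 loci with a mean sum of at least 5 in each strain, an isoform was separated in each direction. The 6 with the largest change of share show how far the exchange went. At locus 1818, 2 isoforms exchanged places. MERGE.1818.4 lay between 3.49 and 6.50 in WKY, with a median of 5.58, and between 0.0367 and 0.341 in SHR, with a median of 0.196. MERGE.1818.3 was listed at 0 in 5 WKY libraries and at 0.731 in WKY 1. In SHR it ran from 3.25 to 35.9 with a median of 4.85. SHR 3 and SHR 5, at 32.1 and 35.9, stood far above the other 4, which lay between 3.25 and 4.86. The share of MERGE.1818.3 was 1.69% ± 4.13 (SD, n = 6) in WKY and 97.3% ± 3.43 (SD, n = 6) in SHR, and neither isoform overlapped between the strains. Because of those 2 libraries the sum was 14.4 ± 15.4 in SHR and 5.45 ± 1.38 in WKY.

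Locus 3624 exchanged its only WKY isoform for 2 others at nearly the same sum. MERGE.3624.1 ranged from 5.01 to 7.94 in WKY, with a median of 7.18, and made up the whole listed sum there. In SHR it ranged from 0.0209 to 1.25 with a median of 0.476. MERGE.3624.3 and MERGE.3624.2 were listed at 0 in every WKY library. In SHR they had medians of 4.13 (2.92 to 5.77) and 1.84 (0.945 to 2.37), which gave shares of 64.2% ± 9.99 and 27.7% ± 8.61 (SD, n = 6). All 3 isoforms were fully separated. The sum was 6.82 ± 1.19 in WKY and 6.64 ± 0.88 in SHR, so a summed value would have shown a log2 difference of -0.03.

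Locus 3450 followed the same course with 2 isoforms. MERGE.3450.1 ranged from 10.0 to 15.1 in WKY, with a median of 13.0, and from 0 to 0.964 in SHR, with a median of 0.511. MERGE.3450.2 was 4.18 in WKY 4 and 2.30 in WKY 6, and at most 0.135 in the other 4 WKY libraries. It ranged from 5.27 to 12.7 in SHR, with a median of 12.1. Here WKY 4 and WKY 6 came closest to the SHR pattern, yet both stayed below the lowest SHR value. Its share was 94.7% ± 5.26 (SD, n = 6) in SHR, while MERGE.3450.1 held 92.5% ± 11.4 (SD, n = 6) in WKY. The sum was 13.9 ± 1.93 in WKY and 11.4 ± 2.64 (SD, n = 6) in SHR, a log2 difference of -0.29.

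Locus 5846 held 1 isoform higher in SHR and 4 lower. MERGE.5846.2 was at most 0.00715 in WKY and ranged from 2.68 to 6.89 in SHR, with a median of 5.87, taking 87.0% ± 8.09 (SD, n = 6) of the SHR sum. In WKY the sum was spread over 3 isoforms, MERGE.5846.4 with 35.2%, MERGE.5846.3 with 32.2% and MERGE.5846.8 with 22.9%. MERGE.5846.4 ranged from 1.65 to 3.71 in WKY and was listed at 0 in 5 SHR libraries, with 0.963 in SHR 5. Thus WKY used several isoforms of locus 5846 where SHR used mainly 1.

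The reverse arrangement was seen at locus 15656. MERGE.15656.1 held 91.5% ± 14.4 (SD, n = 6) of the sum in WKY and had values of 14.4, 17.1, 1.31, 13.1, 1.82 and 1.35 in WKY 1 to 6. WKY thus split into 3 libraries above 13 and 3 below 2, the lowest of which still lay above the SHR maximum of 1.26. In SHR the sum was divided between MERGE.15656.6, with a share of 32.0% ± 32.0 (SD, n = 6), MERGE.15656.3, with 28.2% ± 23.9 (SD, n = 6), and others, and no single isoform led in all 6 libraries.

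Locus 15653 had MERGE.15653.9 as its leading isoform in WKY. It ranged from 5.26 to 11.6 there, with a median of 9.18, and from 0 to 0.779 in SHR, a share of 42.0% against 4.10%. MERGE.15653.5 ranged from 0.406 to 1.86 in WKY and from 4.60 to 11.1 in SHR, and its share was 4.95% in WKY and 70.1% ± 15.3 (SD, n = 6) in SHR, where MERGE.15653.2 held a further 18.8%. MERGE.15653.11 ranged from 1.71 to 4.44 in WKY and was listed at 0 in all SHR libraries. The sum was 21.1 ± 5.05 in WKY and 10.8 ± 3.65 (SD, n = 6) in SHR.

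**Figure D2:**
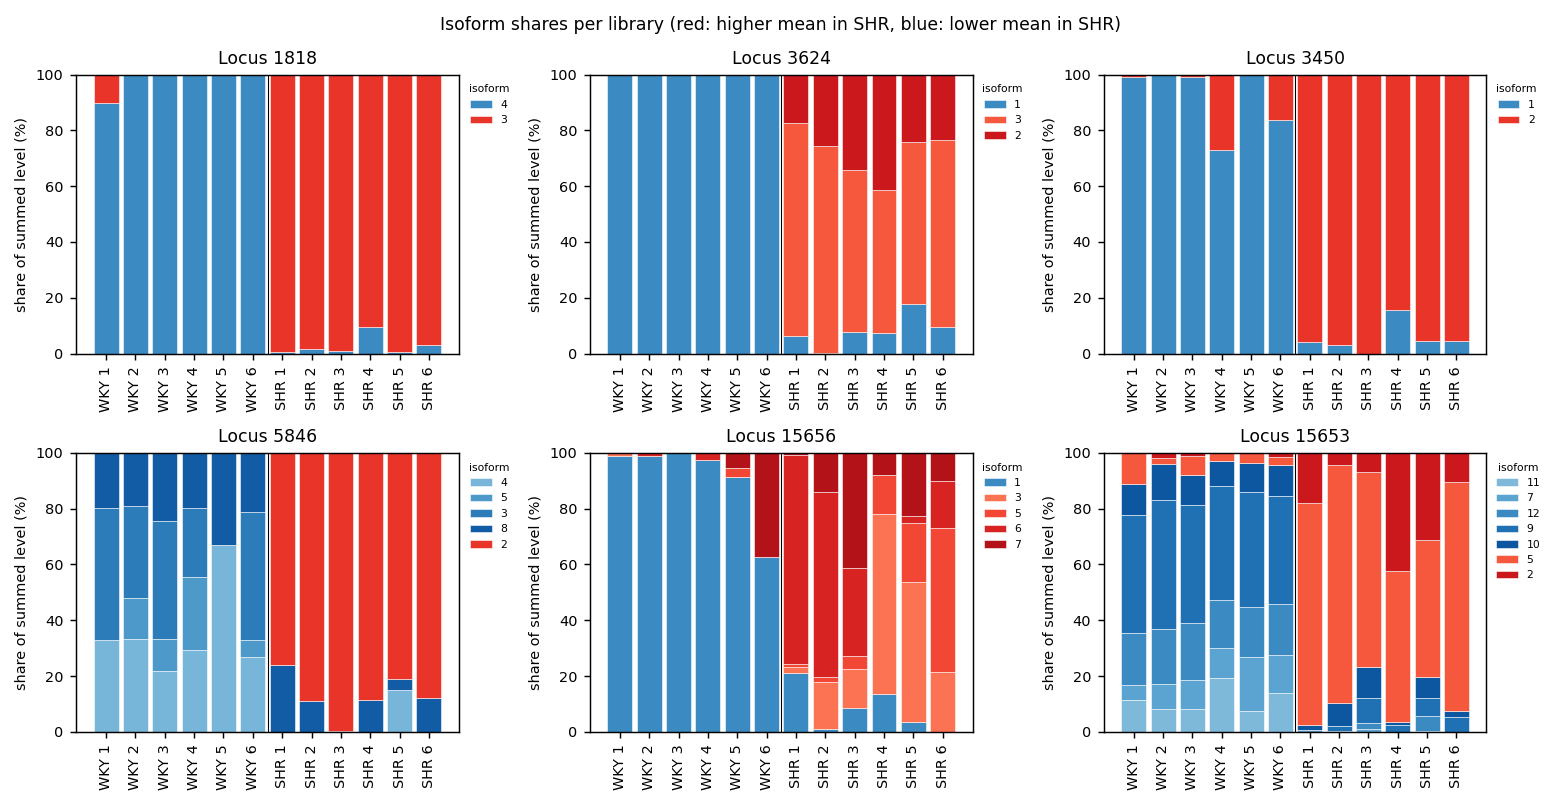
Stacked bars give, for loci 1818, 3624, 3450, 5846, 15656 and 15653, the share of each listed isoform in percent of the summed value, 1 bar per WKY or SHR library. At locus 1818 the isoform MERGE.1818.3 holds 1.69% in WKY and 97.3% in SHR on average; at locus 15656 the SHR bars differ among themselves.

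Outside the rule for named loci, 2 further exchanges were singled out after their values were seen. At locus 25737, MERGE.25737.1 was listed at 0 in every WKY library and ranged from 24.3 to 62.0 in SHR. MERGE.25737.2 was listed at 0 in every SHR library and had values of 2.15, 17.9, 12.2, 8.39, 0 and 4.16 in WKY 1 to 6, so WKY 5 showed neither isoform. At locus 24524, MERGE.24524.1 ranged from 16.4 to 31.5 in WKY and was at most 0.0944 in SHR. MERGE.24524.2 was at most 0.0330 in WKY and ranged from 2.76 to 3.80 in SHR, so here the exchange went with a much lower sum.

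The highest sums were found at loci 6987 and 8746. At locus 6987, MERGE.6987.2 led on average in both strains. It ranged from 97.9 to 293 in WKY, with a median of 227 and a share of 94.5% ± 5.93 (SD, n = 6), and from 35.8 to 45.3 in SHR, with a median of 41.3 and a share of 32.1% ± 4.36 (SD, n = 6). The other 5 isoforms were all higher in SHR and together held 67.9% there, although each was below MERGE.6987.2 in mean share. MERGE.6987.2 led in every WKY library and in 4 SHR libraries, and MERGE.6987.3 led in SHR 3 and MERGE.6987.5 in SHR 6. MERGE.6987.5 ranged from 19.2 to 49.8 in SHR, and in WKY from 0 to 37.7, the highest being WKY 3. MERGE.6987.6 ranged from 9.84 to 35.5 in SHR and was at most 3.36 in WKY, and MERGE.6987.1 ranged from 2.92 to 9.81 against at most 0.0493. The sum was 221 ± 95.9 in WKY and 128 ± 16.7 (SD, n = 6) in SHR, and overlapped through WKY 1, at 101, below every SHR library, and WKY 2, at 116, among them.

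Locus 8746, with 12 listed isoforms, had a higher sum in SHR, 237 ± 176 against 57.9 ± 36.0 (SD, n = 6) in WKY, without overlap. The isoforms that carried this sum differed from 1 SHR library to the next. MERGE.8746.22 was listed at 0 in all WKY libraries and had values of 98.1, 75.6, 51.3, 110, 0 and 48.3 in SHR 1 to 6. MERGE.8746.25 was also listed at 0 in WKY, and its SHR values had a median of 20.5 with a single value of 263 in SHR 3. SHR 3 also had 201 of MERGE.8746.29, which was at most 7.94 in every other library, and SHR 5 had 70.4 of MERGE.8746.26. In WKY, MERGE.8746.15 led with 54.6% ± 20.8 (SD, n = 6), ranging from 10.2 to 56.7 against 1.59 to 15.6 in SHR. MERGE.8746.27 showed the same unevenness in WKY, at 53.2 in WKY 3, 32.3 in WKY 4 and at most 0.0248 in the other 4. The leading isoform was MERGE.8746.22 in 4 SHR libraries, MERGE.8746.25 in SHR 3 and MERGE.8746.26 in SHR 5, while MERGE.8746.15 led in 4 WKY libraries, MERGE.8746.27 in WKY 3 and MERGE.8746.10 in WKY 6.

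Among the 166 loci, the sum was lowest in SHR relative to WKY at locus 9252 and highest at locus 11634. At locus 9252, MERGE.9252.1 ranged from 26.4 to 63.4 in WKY, with a median of 32.9, and in SHR was listed at 0 in 4 libraries and at most 0.0543 in the others. MERGE.9252.5 ranged from 4.02 to 7.73 in WKY and was listed at 0 in SHR. Against these, MERGE.9252.6 was 0.0481 to 0.462 in WKY and 1.14 to 2.42 in SHR, and MERGE.9252.7 was listed at 0 in WKY and ranged from 0.240 to 0.914 in SHR. The sum was 44.5 ± 14.5 in WKY and 2.26 ± 0.642 (SD, n = 6) in SHR, a log2 difference of -3.77. Nearly all of the small SHR sum came from isoforms that were scarce in WKY.

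At locus 11634, 9 isoforms were higher in SHR and 1 lower. The lower one, MERGE.11634.2, ranged from 0.878 to 2.99 in WKY and from 0.749 to 1.12 in SHR, where it was 1.66% ± 0.19 (SD, n = 6) of the sum. MERGE.11634.12 ranged from 6.08 to 43.5 in SHR, MERGE.11634.4 from 5.15 to 12.4, and MERGE.11634.10 from 0 to 21.4. The sum was 3.08 ± 0.997 in WKY and 55.5 ± 10.8 (SD, n = 6) in SHR, a log2 difference of 3.80. WKY 4 stood apart in WKY through MERGE.11634.9 at 3.22. Loci 9252 and 11634 thus met the rule while nearly all of their sum differed in 1 direction.

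Locus 15654 was the most divided. Of its 28 listed isoforms, 17 were higher and 11 lower in SHR, and its isoform numbers reached 94. The SHR-higher isoforms held 5.64% ± 4.10 of the listed sum in WKY and 98.7% ± 1.00 (SD, n = 6) in SHR. They were grouped by the strain means of these same libraries, so a separation of their pooled share was favoured in advance. Single isoforms were far less regular. MERGE.15654.73 led in WKY with a mean share of 34.2% and ranged from 0.920 to 61.0, against at most 0.601 in SHR. In SHR no isoform had a mean share above that of MERGE.15654.85, 10.3%. The sum was 54.3 ± 27.1 in WKY and 45.2 ± 15.4 (SD, n = 6) in SHR. Locus numbers 15652, 15653, 15654 and 15656 all belonged to opposed loci, and whether such neighbouring numbers are neighbours in the genome is not given in the sources used here.

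**Figure D3:**
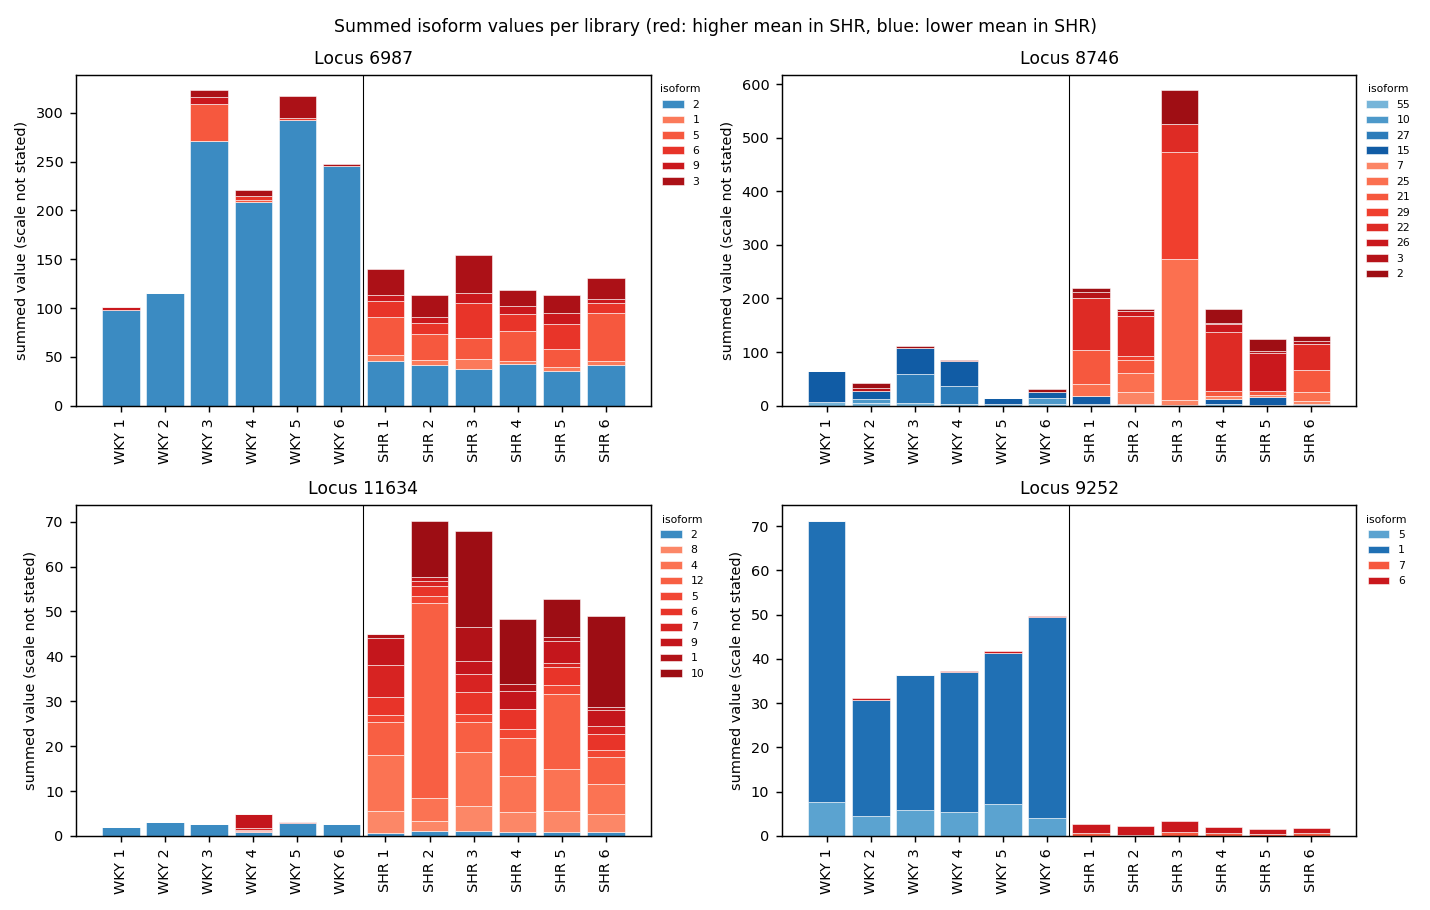
Stacked bars give the values of the listed isoforms of loci 6987, 8746, 11634 and 9252 in each of the 12 WKY and SHR libraries, in the authors' normalised units, with each panel on its own axis. The sum is lower in SHR at loci 6987 and 9252 and higher at loci 8746 and 11634, and in SHR 3 locus 8746 reaches 589.

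The leading isoform also varied within a strain. The same isoform led in all 6 WKY libraries at 62 of 149 loci in which every library had a value, and in all 6 SHR libraries at 68 of 155. At 15 loci 1 isoform led in all WKY and another in all SHR libraries, and at 5 loci the same isoform led in all 12. At 77 of the 166 loci, libraries of 1 strain were dominated by different isoforms, each holding at least 80% of the sum in at least 1 library; this threshold was chosen after the data were seen. It occurred in WKY at 44 loci, in SHR at 40 and in both at 7. Among the other 228 loci it occurred at 88, so it was common in both sets. No minimum sum was set for these counts, so values near 0 enter them. At locus 2680, counted in SHR, MERGE.2680.5 held at least 80% only in SHR 3 and SHR 6, with sums of 0.00887 and 0.209.

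Scored over the 129 loci with a change of leader, every library followed its own strain at most loci. The libraries scored had themselves set these loci and leaders, so this was favoured in advance and is a description. The leader of its own strain led at 74.4% to 80.6% of the loci in the WKY libraries and at 73.6% to 81.4% in the SHR libraries. The leader of the other strain led at 6.98% to 13.2% in WKY and at 6.98% to 14.0% in SHR. With loci and leaders taken from the other 11 libraries, a left-out library followed its own strain at 69.5% to 74.6% of 126 to 131 loci in WKY and at 71.1% to 77.1% in SHR, and the other strain at 9.52% to 16.0% and 10.7% to 15.9%. The listing of transcripts had still used all libraries and had selected for differences between groups, so the left-out scores are a description as well. The values of the 542 isoforms summed to between 1566 and 1909 in WKY and between 1334 and 2103 in SHR, with 143 to 174 isoforms at 0 per WKY library and 159 to 176 per SHR library.

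**Figure D4:**
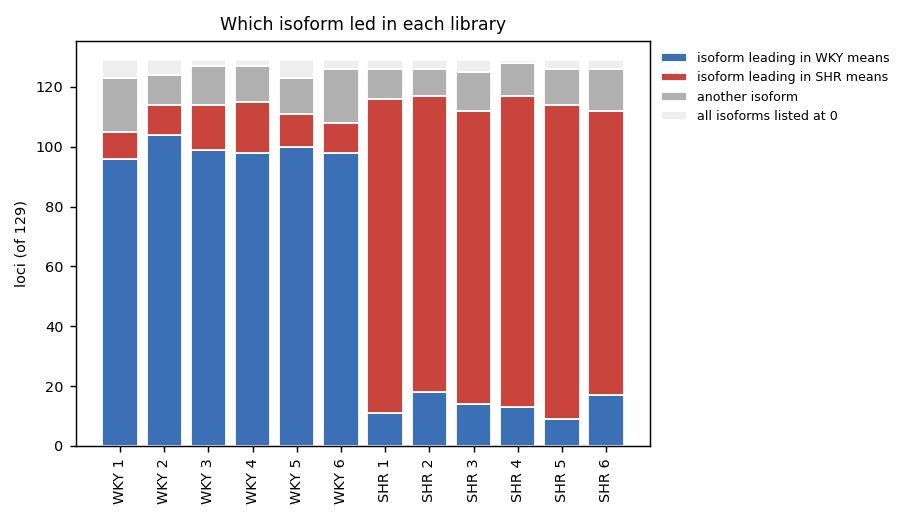
For each of the 12 libraries, bars give the number of the 129 loci with a change of leader at which the WKY leader, the SHR leader or another isoform had the highest share, or no isoform had a value. Own-strain leaders make up 74.4% to 80.6% of loci in WKY and 73.6% to 81.4% in SHR. The loci and leaders were taken from these same libraries, which favours such a result.

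A split within SHR was seen at locus 19518, chosen after its values were seen. MERGE.19518.5, MERGE.19518.6, MERGE.19518.7, MERGE.19518.8 and MERGE.19518.10 were listed at 0 in SHR 2, SHR 4, SHR 5 and SHR 6, but not in SHR 1 and SHR 3. MERGE.19518.5, for example, ranged from 2.54 to 14.2 in WKY and was 6.01 in SHR 1 and 11.6 in SHR 3. The SHR-higher isoforms of this locus held 13.6% in SHR 1, 14.2% in SHR 3 and 100% in each of the other 4, against 7.82% to 13.4% in WKY. SHR 1 and SHR 3 thus had the WKY arrangement at this locus, in all 5 of these isoforms.

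At the edge of the rule the opposition was slight. Locus 1130 was just inside it, with a weaker difference of 0.14. Its MERGE.1130.2 had values of 0, 0.00619, 0.641, 2.12, 0.649 and 0 in WKY 1 to 6 and was listed at 0 in all SHR libraries. MERGE.1130.3 had 0.360, 2.54, 0.00618, 0, 0 and 0.210 in WKY and ranged from 0.313 to 0.904 in SHR, inside the WKY range. Locus 18220 was just outside: all 3 of its isoforms were higher in SHR, the smallest difference being 0.23 for MERGE.18220.5.

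The SHR+Iso tables listed few of these isoforms. Values in all 3 groups were at hand for 64 of the 542 (11.8%), against 15.3% of all 4005 transcripts listed for the strains. They belonged to 55 loci, 49 of which had 1 such isoform, so shares could not be formed in SHR+Iso for most loci. Of the 64 isoforms, 43 were higher and 21 lower in SHR than in WKY. Another 29 isoforms of 21 opposed loci were listed for SHR+Iso alone. They were scarce, with a median group mean of 1.17, and the highest, MERGE.3889.1 with a mean of 7.61, had 15.5 and 30.1 in SHR+Iso 1 and 4 and at most 0.0113 in the other 4. Listing did not mean presence: MERGE.24839.2, MERGE.15703.14 and MERGE.26805.12 were at 0 in all 6 SHR+Iso libraries. Whether the SHR+Iso values were normalised together with the others is not given in the sources used here. SHR+Iso 2 and SHR+Iso 4 had more of the 2823 transcripts of that table at 0, with 1018 and 906, than the other 4, with 455 to 644. Because of this, the counts of treated calls and some of the isoform differences are also given without SHR+Iso 2 and SHR+Iso 4. Among the 64 isoforms only SHR+Iso 2 stood apart, with 27 at 0. SHR+Iso 4 had 17 at 0, and the other 4 libraries had 11 to 17.

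Against SHR, more of the shared isoforms were lower than higher after isoliensinine, as among all shared transcripts. Of the 64, 25 lay above SHR in mean after isoliensinine and 39 below it, with a median log2 difference of -0.56, which was also the median of all 614 transcripts listed in the 3 groups. The model, fitted with limma to the 289 shared transcripts that passed the filter, tested 32 of the 64 and called 15 at an adjusted p under 0.05, 3 higher and 12 lower. Over all transcripts tested, 42.2% were called, a share close to that of these isoforms. The SHR and WKY values that placed an isoform above or below WKY also enter the treated comparisons, so a difference back from SHR was favoured in advance. The filter adds to this: in 6 of the 12 isoforms called lower, no more than 1 SHR+Iso library reached the value of 1, so they were tested through their SHR values. The median log2 difference was -0.79 over the 32 and -0.89 over all 289. Quantile normalisation moved the latter by 0.39 to -0.50, and the split of the calls then turned to 10 higher and 4 lower, so the direction of the calls as a set rests on the scaling. Values did not overlap for 6 of the 64, 3 in each direction (9.38%), where 8.47% of all shared transcripts did not overlap. Without SHR+Iso 2 and SHR+Iso 4, 2 isoforms were called, and 3 when a value of at least 1 in 4 libraries was enough to be tested. The count was also 4, 7, 3, 7 and 6 without SHR 1, 2, 4, 5 and 6, and 8 and 7 without SHR+Iso 2 and SHR+Iso 4.

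Both an SHR-higher and an SHR-lower isoform were listed for SHR+Iso at loci 12522 and 4002 under the rule for named loci. At locus 12522, MERGE.12522.4 was 2.04, 0.145, 0.359, 2.80, 2.49 and 1.97 in WKY 1 to 6 and 2.64, 2.55, 2.94, 2.77, 3.14 and 3.12 in SHR 1 to 6. In SHR+Iso 1 to 6 it was 0.163, 0.342, 0.210, 0.00118, 0.237 and 2.24. All SHR libraries lay above all SHR+Iso libraries, and WKY spread over both. The difference from SHR was -1.46 ± 0.31 (SE) on the log2(value + 1) scale, and -1.32 without SHR+Iso 2 and SHR+Iso 4. The isoform passed the filter through its 6 SHR libraries, with SHR+Iso 6 the only treated library above 1, and the same SHR values chose it, so no p-value is given.

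MERGE.12522.9, the opposed isoform of that locus, was 2.13, 6.72, 8.91, 1.73, 1.46 and 2.14 in WKY 1 to 6 and 0.489, 1.42, 0.896, 0.606, 1.82 and 1.81 in SHR 1 to 6. In SHR+Iso 1 to 6 it was 6.87, 4.87, 5.95, 1.64, 7.38 and 0.956. In SHR+Iso, 4 libraries lay above the SHR maximum and 2 within the SHR range. The difference from SHR was 1.22 ± 0.41 (SE) on the log2 scale, and it was called in 22 of 31 alternatives. Without SHR+Iso 2 and SHR+Iso 4 the difference was 1.38 and was not called. The SHR values that chose this isoform also enter the comparison, so a rise from SHR was favoured and no p-value is given. Against WKY, whose values also chose it, the difference was 0.24 and was not called. SHR+Iso 6, which was lowest for MERGE.12522.9, was the highest for MERGE.12522.4, so in that library the pair resembled untreated SHR. A further isoform of the locus, MERGE.12522.1, was listed for SHR+Iso alone. It was 3.07 in SHR+Iso 4, above MERGE.12522.9 there, and at most 0.321 in the other SHR+Iso libraries.

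At locus 4002, MERGE.4002.2 was 2.96, 0, 0.215, 0, 0 and 0.0831 in WKY 1 to 6, and 0.180, 2.48, 2.54, 2.40, 2.26 and 0.487 in SHR 1 to 6. In SHR+Iso it was 1.48 in replicate 4, 0.689 in replicate 5 and 0 in the other 4. MERGE.4002.1 was 0.387, 1.10, 1.41, 1.37, 1.39 and 0.00959 in WKY, at most 0.523 in SHR, and 2.34, 2.07, 2.34, 0, 0.675 and 0.908 in SHR+Iso. WKY 1, with most of MERGE.4002.2, and SHR+Iso 4, without MERGE.4002.1, were exceptions in their groups, and not the only ones. MERGE.4002.2 also held 89.7% of the pair in WKY 6, and MERGE.4002.1 held 51.7% in SHR 6. In SHR+Iso 5 the pair was nearly even, with 50.5% for MERGE.4002.2. Neither isoform passed the filter for the comparison with SHR, and MERGE.4002.1 differed between SHR+Iso and WKY by 0.24 and was not called.

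**Figure D5:**
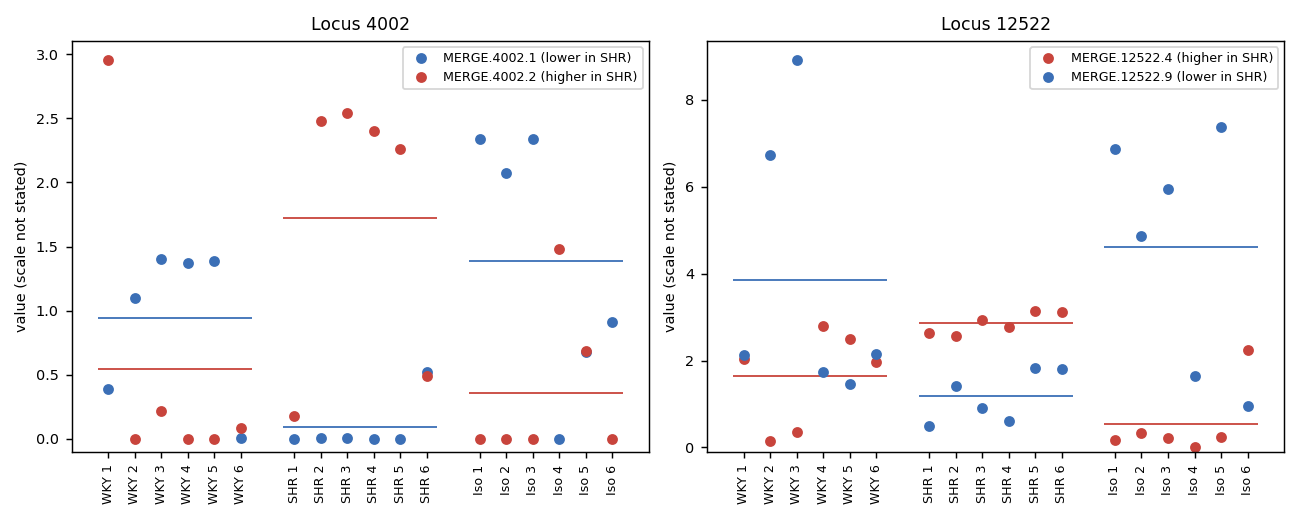
Points give the value of each isoform of loci 4002 and 12522 that was listed for WKY, SHR and SHR+Iso alike, in the 6 libraries of each group. Values are in the authors' normalised units, and horizontal lines mark the group means. For MERGE.12522.4 all 6 SHR points lie above all 6 SHR+Iso points, while the WKY points spread over both.

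Treated values were also listed for single isoforms of the loci with a named strain exchange. MERGE.3624.3, which was listed at 0 in WKY, was 3.04, 0, 1.34, 2.88, 1.05 and 2.75 in SHR+Iso against 2.92 to 5.77 in SHR. The difference was -1.02 ± 0.40 (SE). It was called, but in only 7 of 31 alternatives, and not without SHR+Iso 2 and SHR+Iso 4. The SHR values that chose it also enter this comparison, so a fall from SHR was favoured and no p-value is given. At locus 15654, MERGE.15654.8 was listed at 0 in 4 SHR+Iso libraries, with 2.27 in replicate 4 and 0.229 in replicate 6, and the difference from SHR was -1.54 ± 0.51 (SE). MERGE.15654.8 was tested through its SHR values, 5 of which reached 1, and no p-value is given for it either. MERGE.8746.55 was lower in SHR (0.145 to 2.37) than in WKY (2.56 to 6.30). It ranged from 0.985 to 3.46 in SHR+Iso and was not called against SHR.

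The 3 isoforms called higher than in SHR were MERGE.12522.9, MERGE.3407.6 and MERGE.19518.10, of which the last 2 were singled out after their values were seen. MERGE.19518.10 was 0, 6.28, 5.52, 7.60, 0.811 and 1.69 in SHR+Iso 1 to 6, against 1.03 and 1.22 in SHR 1 and 3, 0 in the other SHR libraries and 0.719 to 2.51 in WKY. Its difference from SHR was 1.46 ± 0.47 (SE). Without SHR+Iso 2 and SHR+Iso 4, with the filter lowered to 4 libraries, it was 0.88 and was not called. MERGE.3407.6 was 7.40, 15.8, 9.29, 12.4, 11.99 and 29.5 in SHR+Iso, above the SHR range of 0.0190 to 5.17, while WKY ranged from 4.96 to 10.7. The difference was 2.23 ± 0.51 (SE) and was called in all 32 alternatives. Without SHR+Iso 2 and SHR+Iso 4 it was 2.18. Both isoforms were placed below WKY by the same SHR values that enter this comparison. A rise from SHR was thus favoured, and no p-value is given for either.

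Against WKY, 26 of the 64 isoforms were tested and 3 were called, where 11% of all transcripts tested were called; 5 had an unadjusted p under 0.05. Values did not overlap for 4 of the 64 (6.25%), all higher in SHR+Iso, against 4.4% of all shared transcripts. The 3 called isoforms, named after their values were seen, had higher means in both SHR groups than in WKY. MERGE.26189.1 ranged from 0.0160 to 0.147 in WKY, from 0.456 to 1.15 in SHR and from 1.15 to 2.27 in SHR+Iso, and differed from WKY by 1.22 ± 0.16 (SE). MERGE.3406.6 ranged from 0.949 to 5.73, from 8.02 to 15.4 and from 13.9 to 47.3 in the same order, with a difference of 2.57 ± 0.37 (SE). MERGE.3889.2 was listed at 0 in all WKY libraries, had 1.24, 1.89, 40.3, 0, 0 and 0 in SHR 1 to 6, and ranged from 1.80 to 10.5 in SHR+Iso, with a difference of 2.03 ± 0.30 (SE). MERGE.26189.1 and MERGE.3889.2 reached 1 in no WKY library and entered the test only through SHR+Iso, so they had to differ, and no p-value is given for them. None is given for MERGE.3406.6 either, since the WKY values that chose it enter this test and favoured a rise over WKY. The count was 1 without any single SHR+Iso library, since the filter then left fewer isoforms to test, and 3 to 4 when a value of at least 1 in 5 libraries was enough. Without SHR+Iso 2 and SHR+Iso 4 together it was 1, and 4 with the filter lowered to 4 libraries. The comparisons with SHR and with WKY share the SHR+Iso libraries, and the comparisons with SHR as control share the SHR libraries.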

How the data were processed

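RNA had been extracted from kidney and depleted of ribosomal RNA before library preparation, per the labels' protocols. The deposited values are the authors' normalised transcript abundances (signal), 1 file per library. The submitters' processing notes name limma, and no source used here gives the aligner, assembler, genome build or scale of the values. The WKY and SHR files list 4005 transcripts, the SHR+Iso files 2823, and 614 are in both.

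Loci and isoforms were read from the IDs, and strain means of log2(value + 1) chose the members. Members and lists were chosen with earlier results of these data known. Shares and sums were formed per library over listed isoforms (Python 3.11.15, pandas 2.3.3). Comparisons used limma 3.58.1 in R 4.3.3, with trended, robust variances on log2(value + 1), over all listed transcripts with a value of at least 1 in 6 of 12 libraries. Benjamini-Hochberg adjustment ran over all of these, with a threshold of 0.05. Scripts were tested on simulated data.

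Loci were named by rule. These were the 6 largest share changes among loci with a sum of at least 5 in each strain and a separated isoform in each direction, the 2 highest sums, and the most isoforms. The rule also took loci with both directions listed for SHR+Iso, the largest rise and fall of the sum, the 2 highest sums with changing leaders, and the loci nearest the edge of the selection. Alternatives were another offset, no or a higher filter, quantile normalisation, medians, a replicate block and left-out libraries.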

Additional observations from a re-analysis of the deposited data

Results flagged for a closer look

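In 8 of 40 groups of 6 values checked among the named loci, 1 library lay far from the other 5 (Dixon's test at its 95% critical value). For normally distributed values chance gives about 1 in 20. The values were not log-transformed and some lay near 0, so that rate may not hold and no excess is read from the count. For the sum at locus 3450 these were WKY 1, at 10.1 with the nearest at 14.0, and SHR 4, at 6.23 with the nearest at 10.9. For the sum at locus 8746 it was SHR 3, at 589 with the nearest at 220. WKY 4 stood out for the sum at locus 11634, at 4.99 with the nearest at 3.01, and SHR 4 for that at locus 1130, at 0.904 with the nearest at 0.492. MERGE.4002.2 in WKY 1 was 2.96 with the nearest at 0.215, and MERGE.4002.1 in SHR 6 was 0.523 with the nearest at 0.0101. MERGE.12522.4 in SHR+Iso 6 was 2.24 with the nearest at 0.342. Several of these groups share isoforms or libraries and are not independent.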

How the results depend on the processing

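The set of 166 opposed loci did not change with the offset, quantile normalisation, medians or any left-out library. It was 164 with untransformed means and 111 over isoforms with a mean of at least 1. The listing had selected transcripts for differences between groups over all libraries, so an unchanged set was favoured in advance and is a description. With a library left out, the leading isoform differed at 126 to 131 loci, both directions were separated at 33 to 38 and sums at 21 to 26. The count of members called for SHR against WKY, 189, was 412 with no filter and 50 with a minimum of 5, and 125 to 153 with a library left out (196 to 212 with the filter lowered to 5 libraries, an alternative chosen after seeing the data). It was lowest, 125, without WKY replicate 3. For SHR+Iso against SHR, the 15 calls became 8 with an offset of 0.1, 32 with no filter, 3 with a minimum of 5, 14 under quantile normalisation (10 higher, 4 lower) and 3 to 15 with a library left out. With the filter lowered to 5 libraries they were 8 to 19, with 9 without SHR replicate 5 and 8 without SHR+Iso replicate 2. They were 2 without SHR+Iso replicates 2 and 4, or 3 with the filter lowered to 4 libraries. For SHR+Iso against WKY, the 3 calls became 1 with a minimum of 5, 1 to 3 with a library left out (3 to 4 with the lowered filter) and 1 without SHR+Iso replicates 2 and 4. With a replicate block the 3 comparisons called 183, 13 and 3 members. The replicate numbers do not pair the samples: correlations of same-numbered libraries ran from -0.0851 to 0.234. Fewer than all libraries correlated best with their own number, 2 of 6, 0 of 6 and 1 of 6 in the 3 comparisons. The 18 isoform calls of the treated comparisons kept their direction in every alternative fit run, stayed past the threshold in 369 of these fits and missed it in 146. Values that chose the members enter these fits, so the kept direction was favoured in advance. The 369 include 24 fits each of MERGE.26189.1 and MERGE.3889.2, which had to differ from WKY. They also include the 6 isoforms called lower than in SHR that were tested through their SHR values. These were MERGE.15654.8 with 17 fits, MERGE.2704.5 with 30, MERGE.15705.7 with 22, MERGE.8787.6 with 23, MERGE.7275.4 with 8 and MERGE.12522.4 with 31. Depth is unknown, so a value of 0 cannot be given a limit.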
